A study of Cavia porcellus with 12 samples.

Results

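The chemokine system of guinea pig liver was followed through 10 genes, of 11896 genes with a human orthologue symbol that were measured. They are the ligands *CCL2*, *CCL7*, *CCL20*, *CXCL8*, *CXCL10*, *CXCL12* and *CX3CL1* and the receptors *CCR2*, *CXCR4* and *CX3CR1*. They were chosen by name as chemokines and receptors with a known place in liver inflammation, and 10 of 10 were found. The livers came from 12 female Hartley (Dunkin Hartley) guinea pigs that were 10 weeks old on arrival and were kept on their diets for 25 weeks. The 6 controls ate chow. The 6 animals with nonalcoholic steatohepatitis (NASH) ate a high-fat diet with added sucrose and cholesterol. The animals with NASH had been selected for bridging fibrosis, and the controls had been drawn at random from chow-fed animals without NASH or fibrosis. Each sample was the left lateral liver lobe of 1 animal, and animals go by their label numbers (controls 5, 10, 31, 32, 45 and 56; NASH 2, 9, 11, 20, 41 and 65). No perfusion preceded sampling, so blood may have been part of the tissue.

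Chemokines are small secreted proteins that guide leukocytes along concentration gradients, and they signal through G protein-coupled receptors on the cells they attract. In liver, CCL2 and CCL7 act on CCR2 and draw monocytes from blood, CCL20 acts on CCR6, CXCL8 acts on CXCR1 and CXCR2 of neutrophils, and CXCL10 is an interferon-induced ligand of CXCR3 on T cells. CXCL12 holds CXCR4-bearing cells in tissue and is also taken up by the atypical receptor ACKR3, while CX3CL1 is made as a membrane-bound protein that is shed by ADAM10 and ADAM17 and is sensed by CX3CR1 on monocytes and macrophages.

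Sequencing gave 16980274 to 28636467 counts per control and 23704607 to 33091460 counts per animal with NASH. Levels are given in CPM, counts relative to a library total that edgeR's TMM factors had scaled, and these are levels of a gene between animals, not levels between genes, since they were not divided by gene length. Where no count was found, up to 3 counts remain possible, equal to at most 0.214 CPM for a control library and at most 0.105 CPM for a NASH library, with counting error alone taken into account. Fold changes and p-values come from edgeR's quasi-likelihood test over all 11896 genes, with Benjamini-Hochberg adjustment and a threshold of 0.05. Of the 11896 genes, 53.9% passed this test, 27.9% higher and 26% lower in NASH.

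Of the 10 chemokine and receptor genes, 8 were higher in NASH, 1 was lower (*CXCL12*) and 1 did not pass (*CXCL10*, by edgeR). The higher genes were 5 of 7 ligands and 3 of 3 receptors. The median log2 fold change of the 10 genes was 2.15, beside 0.0018 over all genes. Setting *CCL7* at its lower bound could not change this median, since the bound also lies above it. In 7 of the 10 genes, every animal with NASH lay above every control, which held for 18.4% of all genes (33.7% had groups apart in either direction). In the remaining 3 genes the groups overlapped. Each of the 8 higher genes passed in all 12 fits that left out 1 animal. Since whole tissue was measured, more cells of a type and more RNA per cell cannot be told apart.

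**Figure D1:**
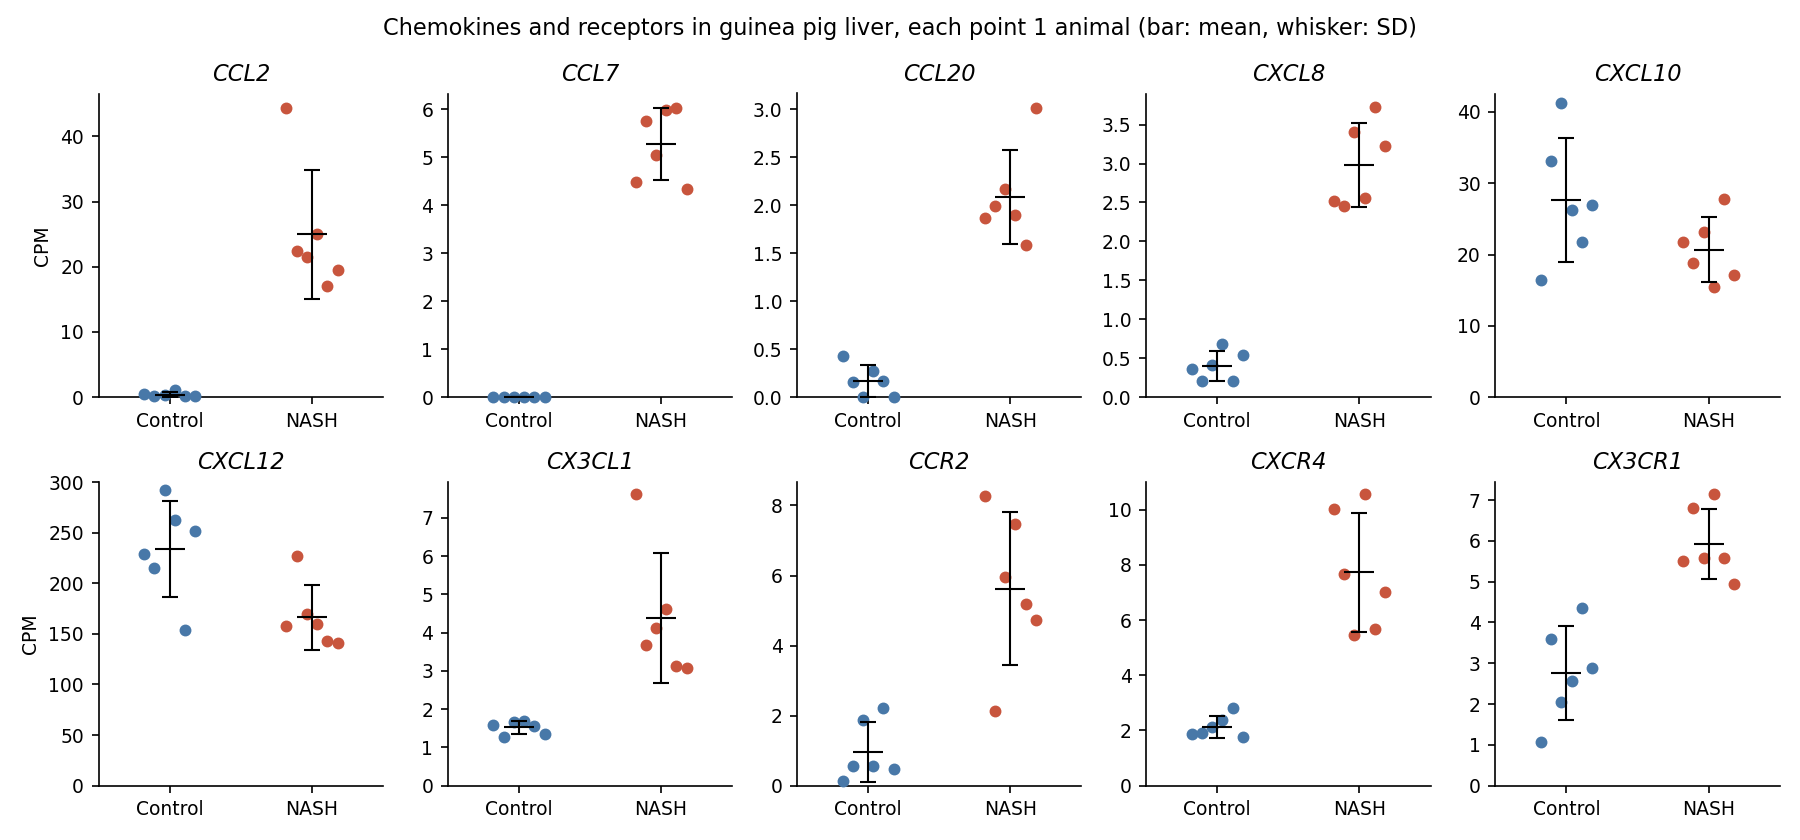
Level of each of the 10 genes in CPM (vertical axes, linear from 0) in the 6 controls (blue) and the 6 guinea pigs with NASH (red). Each point is 1 animal, the bar is the mean and the whisker the SD; the groups do not overlap in *CCL2*, *CCL7*, *CCL20*, *CXCL8*, *CX3CL1*, *CXCR4* and *CX3CR1*.

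The CC ligands showed the largest rises. *CCL2*, the main monocyte attractant, was at 0.135 CPM in the lowest control, 0.269 CPM at the control median and 1.06 CPM in the highest control, animal 32. In NASH it was at 17.1 CPM in the lowest animal, 21.9 CPM at the median and 44.4 CPM in the highest, animal 2. The lowest animal with NASH therefore lay far above the highest control. This is 2 to 23 counts against 558 to 1305 counts. The means were 0.397 ± 0.354 CPM (SD, n = 6) in controls and 25.0 ± 9.87 CPM (SD, n = 6) in NASH, a 61.2-fold difference on the edgeR scale (log2 fold change 5.93, 95% interval 5.01 to 6.85, adjusted p = 3.79e-07). Without control animal 32, the log2 fold change of *CCL2* was 6.58 (adjusted p = 4.57e-07 from edgeR).

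*CCL7*, a second ligand of CCR2 whose gene carried a locus number next to that of *CCL2* but one (15405 and 15407), had no count in any of the 6 controls. The 6 animals with NASH lay close together, between 4.34 and 6.02 CPM with a median of 5.40 CPM (124 to 236 counts). Against the 3 counts that each control could hold, *CCL7* was at least 24.6-fold higher, with an adjusted p of 3.49e-07 by edgeR. The coefficient of variation over the animals with NASH was 14.3% for *CCL7* and 39.5% for *CCL2*, but 13.3% and 14.1% without animal 2. The animal with the most *CCL2* (animal 2) was not the one with the most *CCL7* (animal 41).

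*CCL20*, which attracts CCR6-bearing lymphocytes and dendritic cells, was scarce in both groups. The controls lay between 0 and 0.429 CPM with a median of 0.159 CPM, that is 0 to 6 counts, and 2 of the 6 controls (animals 31 and 56) had none. The animals with NASH lay between 1.58 and 3.01 CPM with a median of 1.94 CPM, from 55 to 86 counts. The groups did not overlap, and the log2 fold change was 3.62 with a 95% interval of 2.54 to 4.69 (adjusted p = 5.34e-05 by edgeR). Its receptor gene *CCR6* rose as well, from 0.716 ± 0.0543 to 1.40 ± 0.140 CPM (SD, n = 6 each; log2 fold change 0.97, SE 0.16, adjusted p = 2.01e-04 from edgeR).

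The CXC ligands did not move together. *CXCL8*, the neutrophil attractant, was at 0.205, 0.388 and 0.688 CPM (lowest, median and highest control) and at 2.45, 2.89 and 3.72 CPM in NASH. Every animal with NASH lay well above the highest control, animal 32. Mean levels were 0.402 ± 0.190 and 2.98 ± 0.542 CPM (SD, n = 6 each), and edgeR gave a log2 fold change of 2.88 (SE 0.28) with an adjusted p of 3.3e-06. Its receptor genes *CXCR1* and *CXCR2* were not analysed here. Of 6 neutrophil markers, 3 were measured and 2 rose, with a summed level of 0.974 to 3.76 CPM in controls and 3.54 to 10.5 CPM in NASH, where 27.9% of all genes were higher; the granule genes *MPO*, *ELANE* and *CAMP* were not analysed here. The part of neutrophils in the *CXCL8* difference was not tested.

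*CXCL10* was at 16.4, 26.6 and 41.3 CPM in controls (lowest, median, highest) and at 15.5, 20.3 and 27.8 CPM in NASH. The groups overlapped, and 1 animal with NASH lay below all controls. The means were 27.6 ± 8.71 and 20.7 ± 4.52 CPM (SD, n = 6 each), and the log2 fold change was −0.42 with a 95% interval of −0.87 to 0.030 (adjusted p = 0.107 from edgeR), which includes no difference. The interferon-gamma-induced neighbour *CXCL9*, with the locus number before that of *CXCL10* (3610 and 3611), also binds CXCR3. It passed the test and was lower, at 9.85 ± 4.10 CPM in controls and 5.82 ± 1.59 CPM in NASH (SD, n = 6 each; log2 fold change −0.77, SE 0.26, adjusted p = 0.0245 from edgeR). *CXCL11* and *CXCR3* were not analysed here. Whether *CXCL9* and *CXCL10* differed in response was not tested. Without control animal 5, whose *CXCL10* was the lowest of the controls, *CXCL10* passed the test as lower (log2 fold change −0.53, adjusted p = 0.0299 from edgeR), while over the 12 fits that each left out 1 animal its adjusted p ranged from 0.0299 to 0.255.

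*CXCL12*, a homeostatic chemokine of stromal and endothelial cells, was at 153, 240 and 292 CPM in controls (lowest, median, highest) and at 141, 159 and 227 CPM in NASH. Of the 6 animals with NASH, 2 lay below all controls and the others within the range of the controls. Mean levels were 234 ± 47.8 and 166 ± 31.8 CPM (SD, n = 6 each), and edgeR gave a log2 fold change of −0.49 (95% interval −0.83 to −0.16) with an adjusted p of 0.0164. The call was kept in each of the 12 fits with 1 animal left out (adjusted p from 0.00244 to 0.0386). It was lost with every row with a count in the fit (log2 fold change −0.40, adjusted p = 0.0531) and at a threshold of 0.01. It was also lost with library size alone in place of TMM factors, at a log2 fold change of −0.021 (adjusted p = 0.913), and *CXCL10* was then at 0.051. With that scaling all genes had a median log2 fold change of 0.48, and relative to this median *CXCL12* was at −0.50 and *CXCL10* at −0.42.

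**Figure D2:**
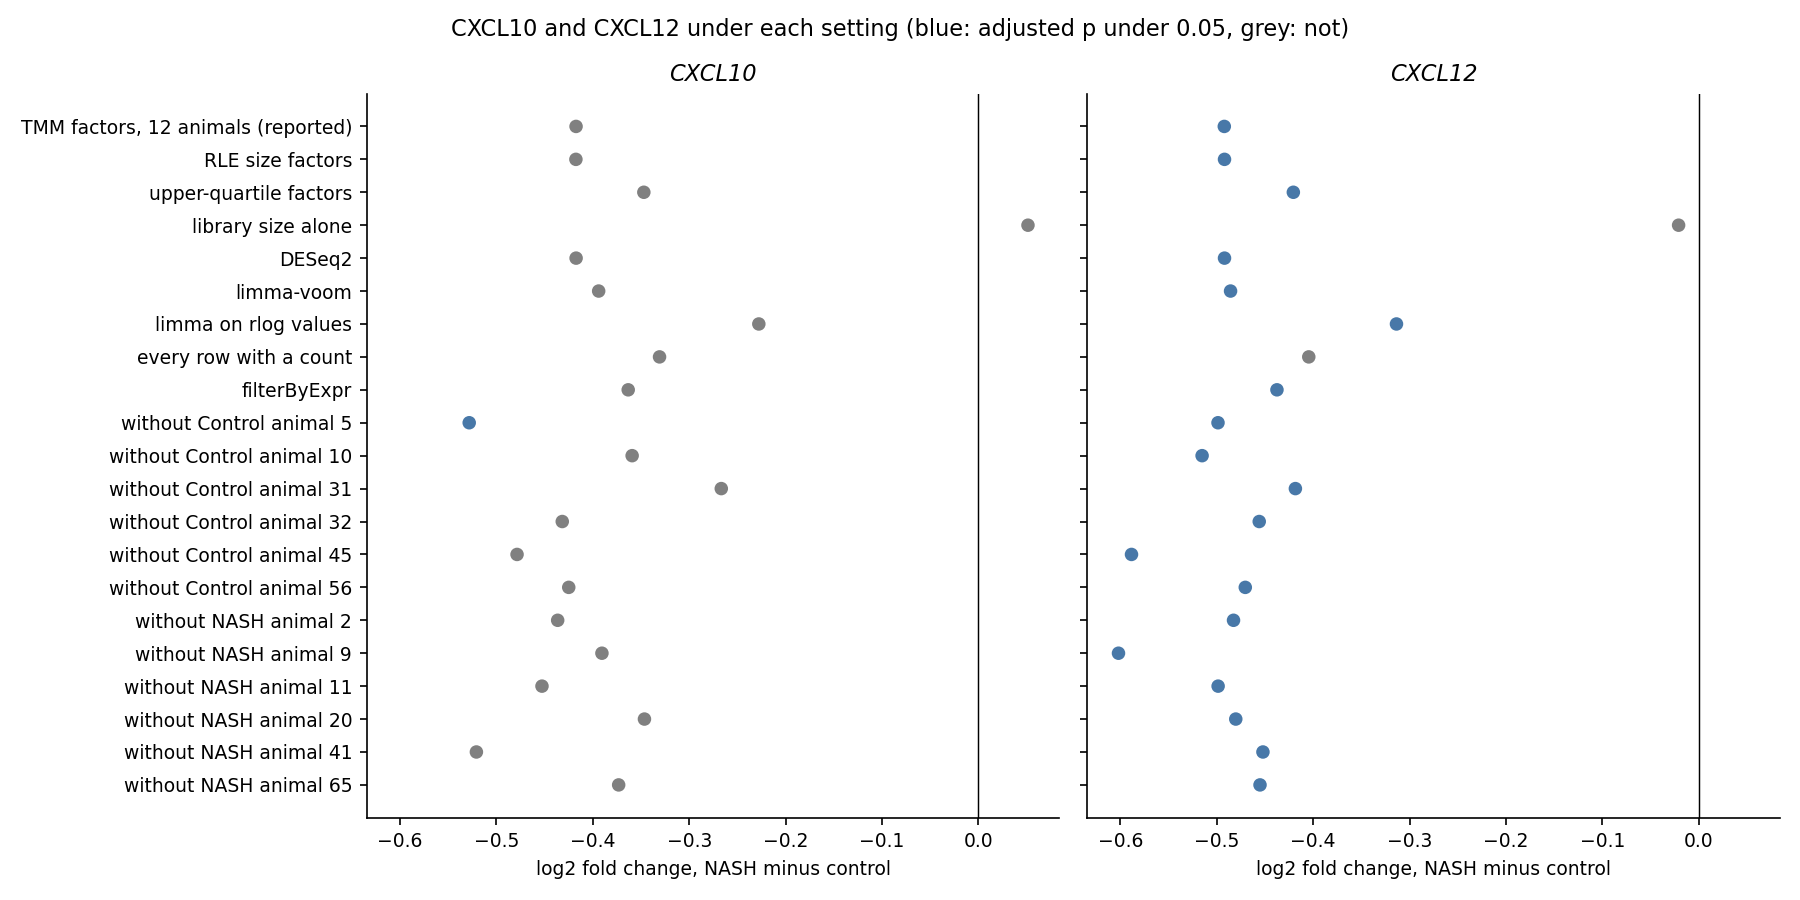
Log2 fold change (horizontal axis, NASH minus control) of *CXCL10* (left) and *CXCL12* (right) under each scaling, tool, filter and animal left out (vertical axis). Blue points had an adjusted p under 0.05 and grey points did not; with library size alone *CXCL10* lies at 0.051 and *CXCL12* at −0.021.

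*CX3CL1* was at 1.28, 1.57 and 1.70 CPM in controls (lowest, median, highest) and at 3.08, 3.90 and 7.62 CPM in NASH. The coefficient of variation was 11.3% in controls and 38.7% in NASH, and 17.6% in NASH without animal 2. NASH animal 2 was the highest, as it was for *CCL2*. Mean levels were 1.52 ± 0.172 and 4.38 ± 1.69 CPM (SD, n = 6 each), and edgeR gave a log2 fold change of 1.51 (SE 0.23) with an adjusted p of 1.07e-04. Both sheddases of CX3CL1 were measured, and both rose, *ADAM10* with a log2 fold change of 0.71 and *ADAM17* with 0.51. Of the 8 genes listed for shedding and cleavage of chemokines, 7 were measured, 3 rose and 1 fell, where 53.9% of all genes passed. The others that passed were the protease gene *MMP2* (log2 fold change 2.02) and the lower *SDC1* (−0.63), which encodes a heparan sulphate proteoglycan.

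Among the receptors, *CCR2* showed the widest spread. It was at 0.143, 0.557 and 2.22 CPM in controls (lowest, median, highest) and at 2.13, 5.57 and 8.26 CPM in NASH. Above all controls lay 5 of the 6 animals with NASH, whereas NASH animal 9 lay just below control 45. The log2 fold change was 2.47 (SE 0.50, 95% interval 1.37 to 3.56, adjusted p = 0.00119 from edgeR). The count row of *CCR2* carried more than 1 symbol, so the rise is that of the row and may not be that of *CCR2* alone.

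A further row, with the next locus number (4924 and 4925), carried the numbered copy *CCR2.1*, again with more than 1 symbol. It was at 1.89 ± 0.828 CPM in controls and 2.16 ± 0.377 CPM in NASH (SD, n = 6 each), with a log2 fold change of 0.18 (95% interval −0.58 to 0.93, adjusted p = 0.692 from edgeR). The numbered row held 67.8 ± 14.8% of the counts of both rows in controls, from 50.9% to 82.9%, and 30.1 ± 13.4% in NASH, from 20.5% to 56.6% (SD, n = 6 each). With the counts of both rows added up, an alternative chosen after seeing the data, the log2 fold change was 1.42 (adjusted p = 0.00545 from edgeR). The share was looked at after the values were seen, and it restates that the *CCR2* row rose beside a numbered row that did not pass. In NASH animal 9 the share, at 56.6%, lay among the controls. Which of the symbols on each row gave the reads was not tested.

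*CCL2* had a numbered copy too, *CCL2.1*, on the row with the next locus number (15408). In controls it had 0 to 10 counts. In 5 of the 6 animals with NASH it held between 16.9% and 24.8% of the counts of the pair of rows, whereas NASH animal 20 had 0 counts of *CCL2.1* beside 803 of *CCL2*, which allows a share of at most 0.458% (exact Clopper-Pearson 95% interval, which covers counting error only). *CCL2.1* rose with *CCL2* (0.108 ± 0.188 against 4.77 ± 2.93 CPM, SD, n = 6 each; log2 fold change 5.27, adjusted p = 0.00108 from edgeR), and without control animal 32 its log2 fold change was 6.67 (adjusted p = 0.00107). Reads that mapped to several places had been dropped, and how far this touched these rows was not tested.

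**Figure D3:**
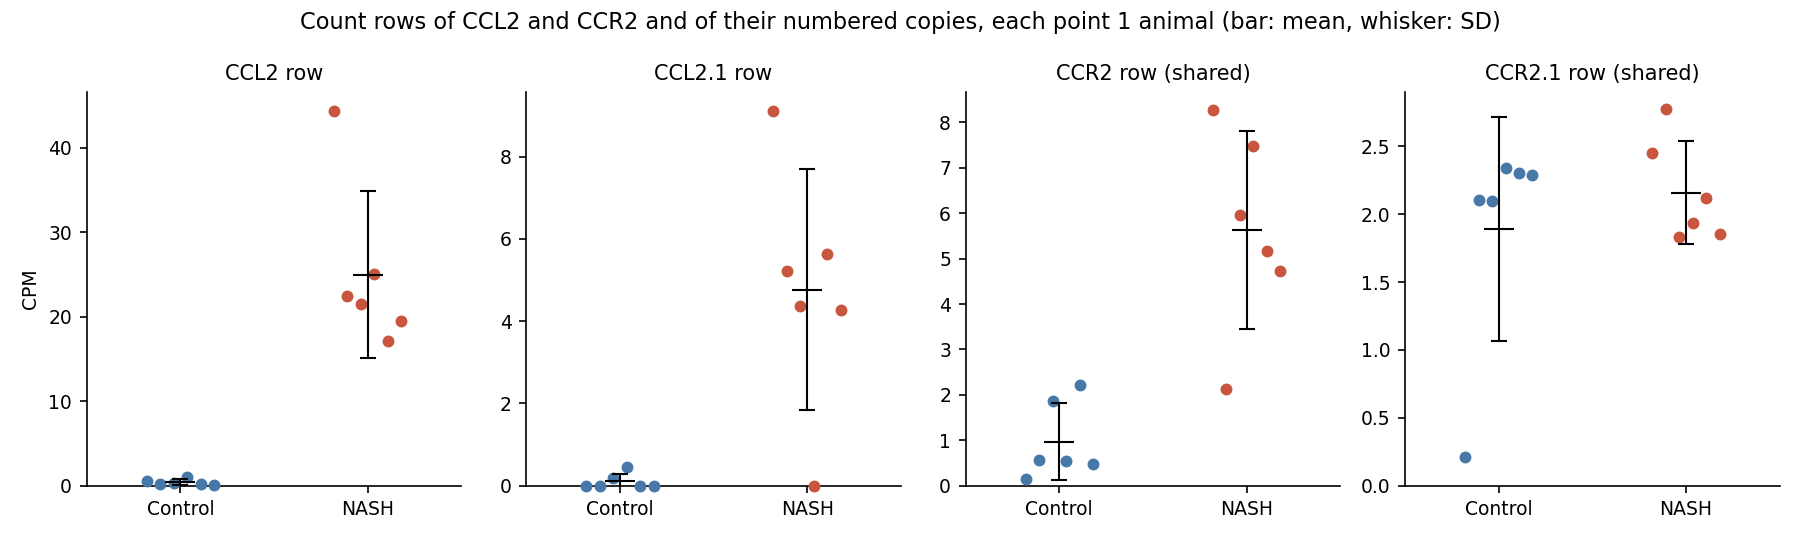
CPM (vertical axes, linear from 0) on the count rows of *CCL2* and *CCR2* and on those of their numbered copies in the 6 controls (blue) and the 6 guinea pigs with NASH (red). Each point is 1 animal, the bar is the mean and the whisker the SD; NASH animal 20 has 0 counts of *CCL2.1*, and the *CCR2.1* row overlaps between groups where 5 of 6 animals with NASH exceed all controls on the *CCR2* row.

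*CXCR4*, the receptor of CXCL12, was at 1.75, 2.02 and 2.80 CPM in controls (lowest, median, highest) and at 5.47, 7.34 and 10.6 CPM in NASH. The groups did not overlap. By edgeR the log2 fold change was 1.84 (SE 0.20), with an adjusted p of 6.76e-06, opposite in sign to that of its ligand gene. *ACKR3*, the scavenging receptor of CXCL12, also rose without overlap, from 2.53 ± 1.02 to 6.49 ± 2.28 CPM (SD, n = 6 each; log2 fold change 1.36, SE 0.28, adjusted p = 0.00107 from edgeR).

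*CX3CR1*, which marks patrolling monocytes and some liver macrophages, was at 1.07, 2.73 and 4.36 CPM in controls (lowest, median, highest) and at 4.94, 5.58 and 7.14 CPM in NASH. The highest control, animal 45, came close to the lowest animal with NASH, animal 65, without reaching it. By edgeR the log2 fold change was 1.09 (SE 0.25), with an adjusted p of 0.00252, so ligand and receptor genes of the CX3CL1 axis both rose.

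No animal with NASH was highest throughout. Animals 2 and 41 were each highest in 3 of the 10 genes, animal 20 in 2, animals 9 and 65 in 1 each and animal 11 in none, while animal 65 was lowest in 4. Next, 6 pairs of these genes were compared across the 6 animals with NASH on log2 CPM. Pearson's r was 0.46 for *CCL2* with *CCR2* (two-sided exact permutation p = 0.296, Spearman's rho 0.60 with p = 0.242). It was −0.27 for *CCL7* with *CCR2* (exact p = 0.706, rho −0.029 with p = 1) and −0.41 for *CCL2* with *CCL7* (exact p = 0.479, rho −0.20 with p = 0.714). It was 0.10 for *CXCL12* with *CXCR4* (exact p = 0.889, rho 0.086 with p = 0.919), 0.13 for *CX3CL1* with *CX3CR1* (exact p = 0.857, rho 0.26 with p = 0.658) and −0.23 for *CCR2* with *CX3CR1* (exact p = 0.676, rho −0.029 with p = 1). After adjustment over the 6 pairs every exact p of r was 0.889 and every exact p of rho was 1. With 6 animals these values do not show that ligand and receptor levels are unrelated. Without the 2 animals farthest from the median of the gene named first, r was 0.23, −0.060, 0.94, 0.10, 0.55 and 0.96 in the order of the pairs above, so that *CCL2* with *CCL7* and *CCR2* with *CX3CR1* changed sign and rested on those animals.

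The genes most alike were sought for the 5 genes with at least 10 counts in every animal, by Pearson's r of the deviations from the group means on log2 CPM over 12 animals, among 10674 genes. For *CX3CR1* they were *TLR7* (r = 0.95) and *SESTD1* (0.94). For *CXCL12* they were *ZNF652* (0.93) and *TRAF3IP1* (0.86), and for *CX3CL1* the fibrillar collagen gene *COL5A1* (0.92) and *MTOR* (0.88). For *CXCL10* they were *AOC3* (0.88) and *NLRC5* (0.88), an interferon-induced regulator of MHC class I genes, and for *CXCR4* they were *PACC1* (0.88) and *NCBP1* (0.84). These values describe the closest of many genes over few animals, and the 2 genes of a pair were read from the same library in each animal. Single animals lay far from their group, control animal 5 in *CX3CR1* (1.07 CPM) and NASH animal 2 in *CX3CL1* (7.62 CPM). How far r rests on these animals was not tested.

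The rest of the chemokine system was measured in part. Of 36 other ligand genes, 11 were found on 9 count rows, of which 3 rows rose, 3 fell and 3 did not pass. These shares are near those over all genes, 27.9% higher and 26% lower. *CCL22*, a macrophage and dendritic cell product that draws CCR4-bearing T cells, rose 9.15-fold without overlap, from 0.165 ± 0.0972 to 1.60 ± 0.283 CPM (SD, n = 6 each; adjusted p = 8.01e-06 from edgeR). The row of *CCL4*, a macrophage product, which *CCL4L2* shared, rose 7.25-fold (0.920 ± 0.209 to 6.78 ± 2.15 CPM, SD, n = 6 each; adjusted p = 1.19e-06 from edgeR). The row shared by *CCL15* and *CCL23*, ligands of CCR1, rose 3.19-fold.

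The lower rows were those of *CCL5*, of *XCL1* with *XCL2*, and of *CXCL9*. *CCL5*, made by T and NK cells, was at 10.7 ± 2.51 CPM in controls and 6.00 ± 1.36 CPM in NASH (SD, n = 6 each; log2 fold change −0.83, adjusted p = 0.00145 from edgeR). The row shared by *XCL1* and *XCL2*, which NK and CD8 T cells release, was at 1.92 ± 0.496 and 0.807 ± 0.225 CPM (SD, n = 6 each; log2 fold change −1.25, adjusted p = 9.86e-04 from edgeR). With library size alone, *CCL5* (−0.37, adjusted p = 0.0739) and *CXCL9* (−0.30, adjusted p = 0.299) no longer passed.

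Other receptor genes were measured in part. *CCR1*, a monocyte and neutrophil receptor that CCL7 also binds, rose from 10.6 ± 3.67 to 29.5 ± 3.92 CPM without overlap (SD, n = 6 each; log2 fold change 1.47, adjusted p = 3.07e-04 from edgeR). *CCR6* passed as well, whereas *CCR7* and *CXCR6*, which T cells carry, had log2 fold changes of 0.33 and 0.17 and did not pass. *CCR3* and the ligand gene *CCL8* were not analysed here. Of 5 atypical receptors, 4 were measured and 2 rose, *ACKR3* and *ACKR2* (log2 fold change 0.43), where 27.9% of all genes were higher. *ACKR1*, the receptor of venular endothelium and red cells that binds CCL2, CCL7 and CXCL8, had a log2 fold change of 0.078 with a 95% interval of −0.33 to 0.48.

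**Figure D4:**
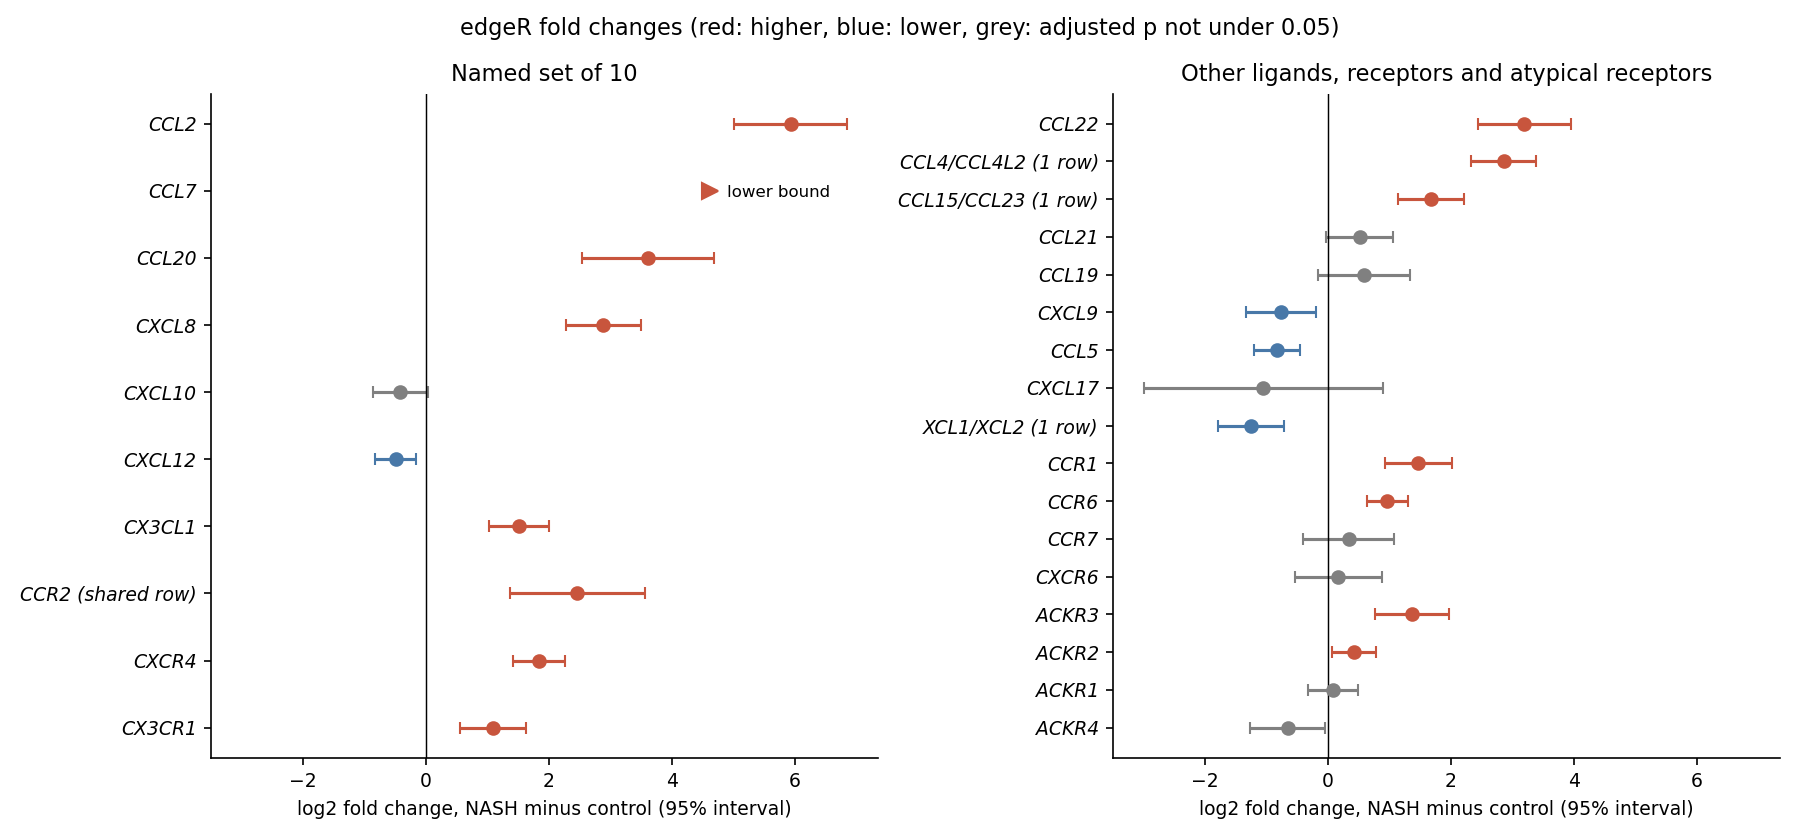
Log2 fold change (horizontal axis, NASH minus control, with 95% interval as bars) of the 10 genes (left) and of the other ligands, receptors and atypical receptors (right). Red was higher, blue lower and grey had an adjusted p not under 0.05; *CCL7*, with no count in controls, is drawn as an arrowhead at its lower bound of 4.62, and *CCL2* lies at 5.93.

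Downstream of the receptors, 26 of 27 signalling genes were measured, of which 18 rose and 0 fell by edgeR, and the median log2 fold change was 0.90. Over all genes 27.9% were higher and 26% lower. The largest rises were those of *RGS1* (log2 fold change 4.06) and *RGS16* (2.86), which shorten G protein signals, of the kinase gene *PTK2B* (2.21) and of *PAK1* (1.87), a kinase of cell movement. Of 18 genes that induce chemokine expression, 17 were measured, 10 rose and 0 fell, with a median of 0.41. The NF-kappaB subunits *RELB* (2.07) and *NFKB2* (1.40), *TNF* (1.58) and *IFNGR2* (1.41) rose most, while *IL1B* (0.41, adjusted p = 0.154) and *IRF1* (0.0089, adjusted p = 0.967) did not pass edgeR's test. In either list the number lower was also 0 at an unadjusted p under 0.05.

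Markers of the cells that make or sense chemokines were read beside these genes, and 27.9% of all genes were higher and 26% lower. Of 15 monocyte and macrophage markers, 12 were measured, 6 rose and 1 fell, with summed levels of 433 to 763 CPM in controls and 1148 to 1489 CPM in NASH. Without *GPNMB*, which carried most of this difference, the sums were 419 to 705 CPM and 713 to 928 CPM, and *CD14*, *CSF1R*, *C1QA*, *C1QB* and *C1QC* did not pass. *TREM2* and *GPNMB*, of lipid-associated macrophages, rose most, and *MARCO*, of resident Kupffer cells, fell. Of 12 T and NK cell markers, 10 were measured, 1 rose (*CD8A*) and 3 fell (*CD3E*, *NKG7* and *PRF1*), with sums of 90.0 to 137 CPM in controls and 47.9 to 88.6 CPM in NASH. Without *CD3E*, which carried most of this difference, the sums overlapped, at 27.2 to 52.8 CPM and 23.3 to 39.8 CPM, and the other 6 markers did not pass. The part of these cells in the rises of *CCL2*, *CCR2* and *CX3CR1* and in the lower *CCL5*, *XCL1* and *CXCL9* was not tested.

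Of 8 stellate cell markers, 6 rose and 1 fell (585 to 727 against 1012 to 1947 CPM), and of 7 endothelial markers 3 rose and 1 fell (503 to 690 against 570 to 829 CPM, or 289 to 495 against 360 to 499 CPM without *STAB2*). Both cell types are known sources of CXCL12. All 4 measured of 5 cholangiocyte markers rose (63.0 to 93.5 against 264 to 482 CPM), and bile duct cells are a known source of CCL2, CXCL8 and CX3CL1. Of 6 B cell markers, 3 were measured and 3 rose (5.87 to 10.9 against 14.2 to 24.3 CPM), and of 5 erythroid markers 3 were measured and 3 rose (57.0 to 171 against 426 to 4524 CPM). Of 6 hepatocyte markers, 5 fell, with sums of 93864 to 117080 CPM in controls and 36832 to 58115 CPM in NASH. The part of these cell types in the chemokine differences was not tested.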

How the data were processed

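Liver mRNA of 6 controls and 6 guinea pigs with NASH was sequenced as stranded libraries with single reads of 75 nt, and groups and animal numbers were taken from the sample labels. The authors trimmed reads with Trimmomatic 0.38.0, mapped them with HISAT2 2.1.0 to Cavpor3.0, ignored multimapped reads, assembled and quantified loci with StringTie 1.3.6 and deposited raw counts per locus. The authors also deposited log2 values, made with the rlog function of DESeq2 for genes with a human orthologue symbol and at least 200 counts in total. Symbols were assigned to count rows by repeating rlog until the 2 tables differed by at most 8.4e-07, which linked 11896 symbols to 11031 of 39061 rows, and 1515 symbols shared a row.

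Counts were tested in R 4.3.3 with edgeR 4.0.16 (TMM factors, glmQLFit with robust estimation, glmQLFTest, Benjamini-Hochberg adjusted p under 0.05 over 11896 symbols). SEs were taken as the absolute log2 fold change divided by the root of the F statistic. Log2 CPM used a prior count of 2. The precision of low genes was limited to 3 counts, and intervals are at 95%. No pair of animals shared a library. Python 3.11.15 with matplotlib 3.10.9 drew the figures. The fit was also run on simulated counts with few changed genes, as many higher as lower. That run cannot show how the scaling acts on these data, where 53.9% of genes passed.

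The genes and gene lists were chosen with earlier results of these data known. Named were the 10 genes, the receptors and ligands that pair with them, up to 4 genes with the largest change past the threshold in a list, and the 2 genes most like each of the 10 with at least 10 counts in every animal (mean CPM of compared genes at least 1). The numbered copies and the genes that are named as not passing in a list were added after their values were seen. Alternatives were RLE and upper-quartile factors, library size alone, DESeq2 1.42.0, limma-voom and limma on rlog values (limma 3.58.1), every row with a count, the filterByExpr filter, an adjusted p under 0.01, a test for log2 fold changes beyond 1 in either direction, each animal left out in turn and, chosen after seeing the data, the counts of numbered copies added up, spreads without NASH animal 2 and marker sums without the gene that moved them most. No sequence or coordinate was used here, and some measured genes are left unreported.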

Additional observations from a re-analysis of the deposited data

Results flagged for a closer look

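In 57 groups of 6 animals, 1 animal was compared with the spread of the rest, and chance alone sets an animal apart in about 1 of 20 such groups. NASH animal 2 stood apart with 44.4 CPM of *CCL2*, where the next animal had 25.0 CPM, and with 7.62 CPM of *CX3CL1*, where the next had 4.61 CPM. NASH animal 9 stood apart with 227 CPM of *CXCL12*, where the next had 170 CPM. Control animal 5 stood below the other controls with 0.214 CPM of *CCR2.1* (the next had 2.095 CPM), 3.22 CPM of *CCR1* (next 11.04 CPM) and 1.0 CPM of *XCL1* (next 1.85 CPM).

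Between the chemokine genes lay 15 loci without a symbol, which the comparisons above did not use, and in a fit over 31748 count rows 8 of them were higher and 1 lower in NASH by edgeR, beside 18.9% of all rows that were higher. Of these loci, 2 had no count in any control. The locus between *CCL7* and *CCL2* had 25 to 77 counts in every animal with NASH (1.31 CPM, at least 6.10-fold higher than 3 counts per control), and a locus between *CCL4* and *CCL15* had 32 to 86 counts (1.496 CPM, at least 6.98-fold higher). Whether these loci are parts of the neighbouring genes or genes of their own was not tested.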

How the results depend on the processing

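The number of higher genes among the 10 changed by less than 1.5 times under the alternatives run. The number lower, 1 with TMM factors, was 0 with library size alone, with every row with a count (*CXCL12* at −0.40, adjusted p = 0.0531 from edgeR), at a threshold of 0.01 and in the test for log2 fold changes beyond 1, and 1 to 2 with each animal left out in turn. In edgeR's test for log2 fold changes beyond 1, *CX3CL1* (adjusted p = 0.0511) and *CX3CR1* (adjusted p = 0.944) did not pass either. *CXCL10* was at 0.051 with library size alone, a reversal. The other genes of the chemokine system, 40 higher and 5 lower, gave 2 lower with library size alone and 15 higher and 0 lower in the test beyond 1. With library size alone the median over all genes was 0.48 on the log2 scale, and 7603 genes were higher and 911 lower, beside 3318 and 3093 with TMM factors. Of the pairs, r over the deviations of 12 animals reversed for *CCL2* with *CCR2* (−0.12), *CXCL12* with *CXCR4* (−0.16), *CX3CL1* with *CX3CR1* (−0.082) and *CCR2* with *CX3CR1* (0.50), and r without 2 animals reversed for *CCL2* with *CCL7* (0.94) and *CCR2* with *CX3CR1* (0.96). The cause was not tested. No paired analysis was possible because the groups share no animal number. Depth limits *CCL7*, *CCL20* and *CCL2* in controls, where few or no counts stand behind a level.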
